A study of Mus musculus with 38 samples.

Results

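RNA bound to the ribosomes of cortical Olig2 cells was compared with that of cortical oligodendrocyte progenitor cells over all measured genes. The members were chosen by their labels: 3 arrays labelled as cortical oligodendroglia, from an Olig2 reporter line, and 3 labelled as progenitors, from a Pdgfra reporter line. They make up 6 of the 38 mouse arrays of the series, which also holds other cell populations of cortex, cortex total RNA and gliomas. Both groups came from dissected cortex of adult wildtype mice on mixed c57/bl6j, FVB and Swiss-Webster strains, without induction of a tumour. In translating ribosome affinity purification, a tagged ribosomal protein is expressed from the promoter of a chosen gene, and the RNA on tagged ribosomes is pulled down from the whole tissue. Each group is therefore defined by 1 promoter, Olig2 or Pdgfra, and by 1 reporter line as labelled. The design text gives pools of at least 2 mice for the cortical cell types. Whether the 3 arrays of a group came from separate pools is not given in the sources used here. The p-values and standard errors rest on the spread between arrays within a group, pooled over the 12 groups of the series, gliomas included. That spread may be technical.

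Olig2 is a basic helix-loop-helix transcription factor of the oligodendrocyte lineage. Pdgfra, the receptor for platelet-derived growth factor AA, is carried by the progenitors, which divide in the adult cortex, and is lost as they become myelinating cells. Olig2 is kept on in myelinating oligodendrocytes and is also found in some astrocytes, so an Olig2 reporter is known to mark a broader population than a Pdgfra reporter.

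Levels are log2 signals of 1 probe set per gene, after quantile normalization over the 38 arrays, and are given per array or as mean ± SD (n = 3 arrays in each group). A level below a signal of 50 (5.64 on the log2 scale) is called dim. Rises and falls are changes in Olig2 cells of at least 2-fold with an adjusted p below 0.05 in limma. Differences are Olig2 cells minus progenitors on the log2 scale, ± standard error.

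Some properties of the arrays bear on every result. Replicates correlated at 0.987 to 0.996 in Olig2 cells and at 0.990 to 0.997 in progenitors. The deposited value was exactly the same on all 3 arrays for 1821 of 9799 tested genes (18.6%) in Olig2 cells and for 2408 (24.6%) in progenitors, so the spread between replicates is too small for these genes and their p-values with it. The lowest deposited value was shared within each group and differed between the groups, 2.11 in Olig2 cells and 2.10 in progenitors. The authors' processing may thus have been run per group. The spread, the p-values and the separation of the groups may then be affected for all genes, which was not tested. The signal of the 3′ control probe set minus the 5′ one, a measure of how far amplified RNA reaches toward the 5′ end, was 2.69 ± 0.25 for beta-actin in Olig2 cells against 6.48 ± 0.47 in progenitors. For Gapdh it was 2.37 ± 0.37 in Olig2 cells against 6.14 ± 0.35 in progenitors. Progenitors had the highest values of the 12 groups of the series for both controls, and no array of the groups overlapped. RNA quality and cell population cannot be told apart here, in any result that follows.

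**Figure D1:**
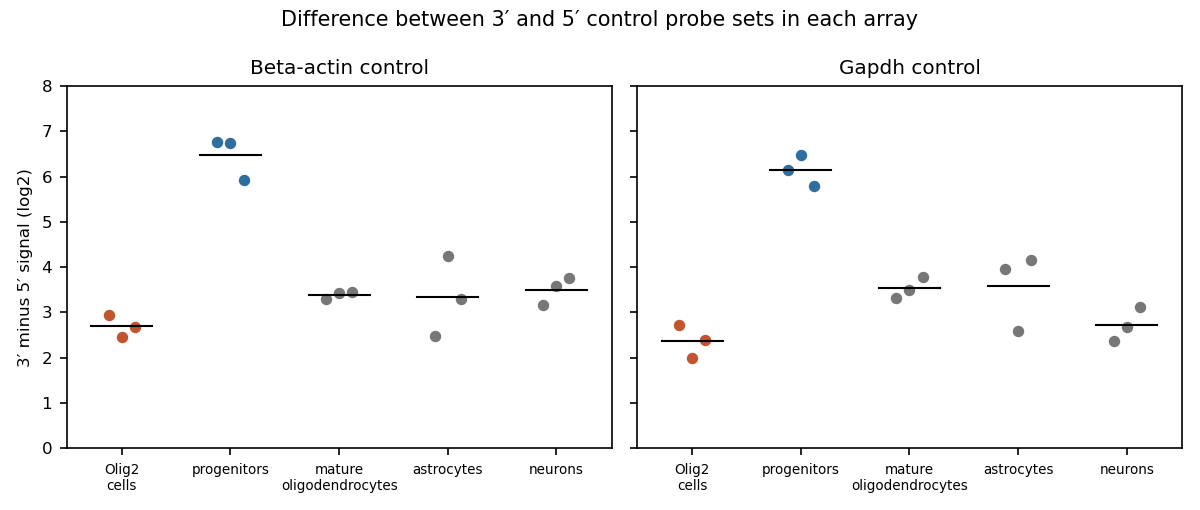
Signal of the 3′ minus the 5′ control probe set (log2) for beta-actin and Gapdh in each array of the 5 cortical populations of bound RNA; points are arrays and bars are means of 3. Olig2 cells averaged 2.69 and 2.37, progenitors 6.48 and 6.14, and the other 3 populations lay between 2.72 and 3.58.

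The reporter genes were examined first. Olig2 read 12.44, 12.46 and 12.51 in Olig2 cells against 12.24, 12.07 and 12.57 in progenitors. The groups overlapped, and the difference of 0.18 ± 0.40 did not pass (limma adjusted p = 0.725), so the RNA of the Olig2 reporter gene was on ribosomes of both populations at levels that these arrays did not separate. Pdgfra read 8.79, 8.77 and 8.96 in Olig2 cells against 10.32, 10.33 and 10.40 in progenitors. It was lower in every Olig2 array and fell 2.84-fold (difference -1.5 ± 0.50, limma adjusted p = 0.0106). It was still well above the dim limit in Olig2 cells, whereas it was dim in mature oligodendrocytes (3.38 ± 0.01), astrocytes (2.09) and neurons (2.08), the 3 other cortical populations, which came from Cnp, Aldh1l1 and Snap25 reporter lines (n = 3 arrays each).

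The genes of those 3 lines separated the groups as well. Cnp, a myelin enzyme, read 13.27, 13.39 and 13.21 in Olig2 cells against 11.13, 11.15 and 12.01 in progenitors and rose 3.63-fold (limma adjusted p = 0.000679). Aldh1l1, a folate enzyme of astrocytes, read 9.05, 9.0 and 9.0 in Olig2 cells against 5.59, 6.23 and 7.35 in progenitors and rose 6.17-fold (limma adjusted p = 9.23e-06). Snap25, a synaptic vesicle fusion protein of neurons, read 12.32, 12.87 and 13.29 in Olig2 cells against 14.59, 14.72 and 14.72 in progenitors and fell 3.59-fold (limma adjusted p = 2.43e-05). None of these 3 genes overlapped between the groups. The deposited value of Aldh1l1 was the same on the 3 Olig2 arrays, so its p-value is too small. The genes of myelin and of astrocytes were the higher ones in Olig2 cells, and the neuronal gene was the lower one.

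Of the 9799 tested genes, 1789 (18.3%) rose and 1845 (18.8%) fell in Olig2 cells, 37.1% in all. The median difference over tested genes was -0.01. With each array set to the same mean of its bacterial spike-in controls, which moved the median of all genes to -0.19, 1288 rose and 2163 fell, so 37.3% of the genes that passed were higher, against 49.2% on the main scale. Of the genes that passed, 232 that rose and 280 that fell were dim in both groups. The 3 arrays of one group lay wholly above those of the other for 76.6% of tested genes, so separation alone sets few genes apart.

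The largest rises were ranked among genes that passed, with both means above the dim limit. Genes that overlapped between the groups, or had only a clone name, were left out of this ranking. The rises were led by genes of myelinating cells and of astrocytes. Gamt, the enzyme of the last step of creatine synthesis, read 11.04, 11.04 and 10.86 in Olig2 cells against 6.43, 4.88 and 6.38 in progenitors, 33.9-fold higher (limma adjusted p = 3.16e-05). Ntsr2, a neurotensin receptor of astrocytes, read 12.09, 12.13 and 11.64 in Olig2 cells against 7.01, 7.09 and 6.79 in progenitors, 31.7-fold higher (limma adjusted p = 2.2e-18). Mobp, a protein of compact myelin, read 11.36, 11.33 and 11.29 in Olig2 cells against 6.57, 6.49 and 6.57 in progenitors, 27.5-fold higher (limma adjusted p = 3.35e-08). In each of these 3 genes the lowest Olig2 array stood more than 4 log2 units above the highest progenitor array. Gamt was dim on 1 progenitor array. With dim levels set to the limit its difference was 4.83, under the 4.99 of Ntsr2. The other 12 of the 15 largest rises were Cmtm5 (23.2-fold), the troponin gene Tnni1 (22.4-fold), the metallothionein gene Mt2 (by 4.32 on the log2 scale), Hopx (19.6-fold), Id3 (19.3-fold), the prostaglandin D synthase gene Ptgds (18.7-fold), Thbs3 (15.6-fold), Fam107a (14.2-fold), Tppp3 (13.8-fold), Cdc42ep2 (13.5-fold), Josd2 (13.1-fold) and the selenium carrier gene Selenop (12.1-fold).

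These 15 genes differed in where else they were high: 9 had the highest level of the 3 other populations in mature oligodendrocytes, 6 in astrocytes and 0 in neurons. Hopx, Id3 and Thbs3 had 1 deposited value on all 3 progenitor arrays. Mobp and Tnni1 were at 11.32 ± 0.03 and 10.57 ± 0.20 in mature oligodendrocytes and dim in astrocytes and neurons. Ntsr2, Id3, Hopx and Fam107a were highest in astrocytes, at 14.16 ± 0.13, 13.75 ± 0.14, 13.62 ± 0.07 and 14.65 ± 0.03. Gamt, Cmtm5, Ptgds, Thbs3 and Selenop were above the dim limit both in mature oligodendrocytes and in astrocytes. The levels of Gamt, Mobp, Cmtm5, Tnni1, Id3 and Thbs3 in neurons averaged 2.99 or less, and Ntsr2, at 5.64 ± 0.26, was just under the dim limit there.

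Further genes were dim on all 3 arrays of progenitors, so that only a lower bound of the change can be given, set against the dim limit. Acy3, an aminoacylase, read 10.11, 10.30 and 10.30 in Olig2 cells against 5.07, 2.62 and 3.62 in progenitors and was at least 24.1-fold higher. Mgst1, a glutathione transferase of membranes, read 9.70, 9.65 and 9.67 in Olig2 cells against 3.02, 3.02 and 2.71 in progenitors and was at least 16.3-fold higher. The other bounds were at least 14.3-fold for Rabac1, 13.7-fold for Pdlim4, 12.6-fold for Tmem51 and 12.3-fold for Thrsp. Mlc1, a membrane protein of astrocyte endfeet, and Nudt8 were dim on average in progenitors but not on every array. With dim levels set to the limit, they were higher in Olig2 cells by 4.50 and 3.70 on the log2 scale. Mgst1, Pdlim4, Mlc1 and Thrsp were highest in astrocytes among the other 3 populations, at 12.52 ± 0.27, 11.90 ± 0.23, 12.95 ± 0.20 and 12.36 ± 0.04.

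The largest falls were mostly of genes also found in neurons and in mature oligodendrocytes. Slc4a10, a sodium bicarbonate transporter, read 6.23, 6.41 and 7.70 in Olig2 cells against 10.95, 11.40 and 10.46 in progenitors, 17.8-fold lower (limma adjusted p = 1.12e-06). Pnmal2 read 7.15, 7.04 and 7.52 in Olig2 cells against 11.36, 10.95 and 10.89 in progenitors, 14.2-fold lower (limma adjusted p = 1.21e-08). Arhgap20, a GTPase-activating protein, read 5.69, 5.63 and 5.92 in Olig2 cells against 9.17, 9.48 and 9.27 in progenitors, 11.8-fold lower (limma adjusted p = 2.64e-10). The falls were ranked by the same rule as the rises, which left out genes that overlapped between the groups. The other 12 of the 15 largest falls, from 11.6-fold to 7.71-fold, were Sowahc, the clustered protocadherin gene Pcdhb9, Rgs17, Plppr4, the deubiquitinase genes Yod1 and Otud1, the inositol transporter gene Slc2a13, the neuronal pentraxin gene Nptx1, Zfp711, Ptpn20, the guanine deaminase gene Gda, and Slc16a12. Pcdhb9 belongs to a cluster of near-identical genes, whose probes may share signal. Nptx1 had 1 deposited value on all 3 Olig2 arrays.

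In 12 of these 15 genes neurons had the highest level of the 3 other populations, and in the other 3, Pnmal2, Sowahc and Slc16a12, astrocytes had it. Slc16a12, a transporter of the monocarboxylate family, and Ptpn20, a protein tyrosine phosphatase, were low in most of the other populations. Slc16a12 read 6.29, 5.81 and 6.23 in Olig2 cells against 9.17, 9.45 and 8.56 in progenitors, and was dim in mature oligodendrocytes (2.48 ± 0.01), astrocytes (4.46 ± 0.04) and neurons (2.08). Ptpn20 read 6.54, 6.51 and 6.57 in Olig2 cells against 9.88, 9.55 and 9.20 in progenitors, and was dim in mature oligodendrocytes (2.08) and astrocytes (2.08). Its level in neurons was 5.77 ± 0.01, just above the dim limit. Progenitors had the highest level of both genes among the 5 populations, as also of Pnmal2, Sowahc, Pcdhb9, Zfp711 and, by little, Otud1.

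Of the genes dim on all 3 arrays of Olig2 cells, Nup54, a nuclear pore protein, read 5.10, 5.09 and 3.94 in Olig2 cells against 9.24, 9.25 and 9.16 in progenitors and was at least 11.9-fold lower. Phldb2 was at least 11.4-fold lower, Arfgef3 at least 11.3-fold, Nmrk1 at least 10.3-fold, Zfp229 at least 8.77-fold, Tspyl5 at least 8.59-fold and Rbm15, an RNA-binding protein, at least 8.2-fold. Ppm1e, a protein phosphatase, averaged 5.23 ± 0.40 in Olig2 cells and 8.71 ± 0.05 in progenitors and was above the limit on 1 Olig2 array; with dim levels set to the limit its difference was -3.06. Nup54, Rbm15, Tspyl5 and Nmrk1 averaged above the dim limit in mature oligodendrocytes, astrocytes and neurons, Nmrk1 only just in neurons (5.69 ± 0.14). Their dim values in Olig2 cells were thus a departure from all 4 other populations.

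**Figure D2:**
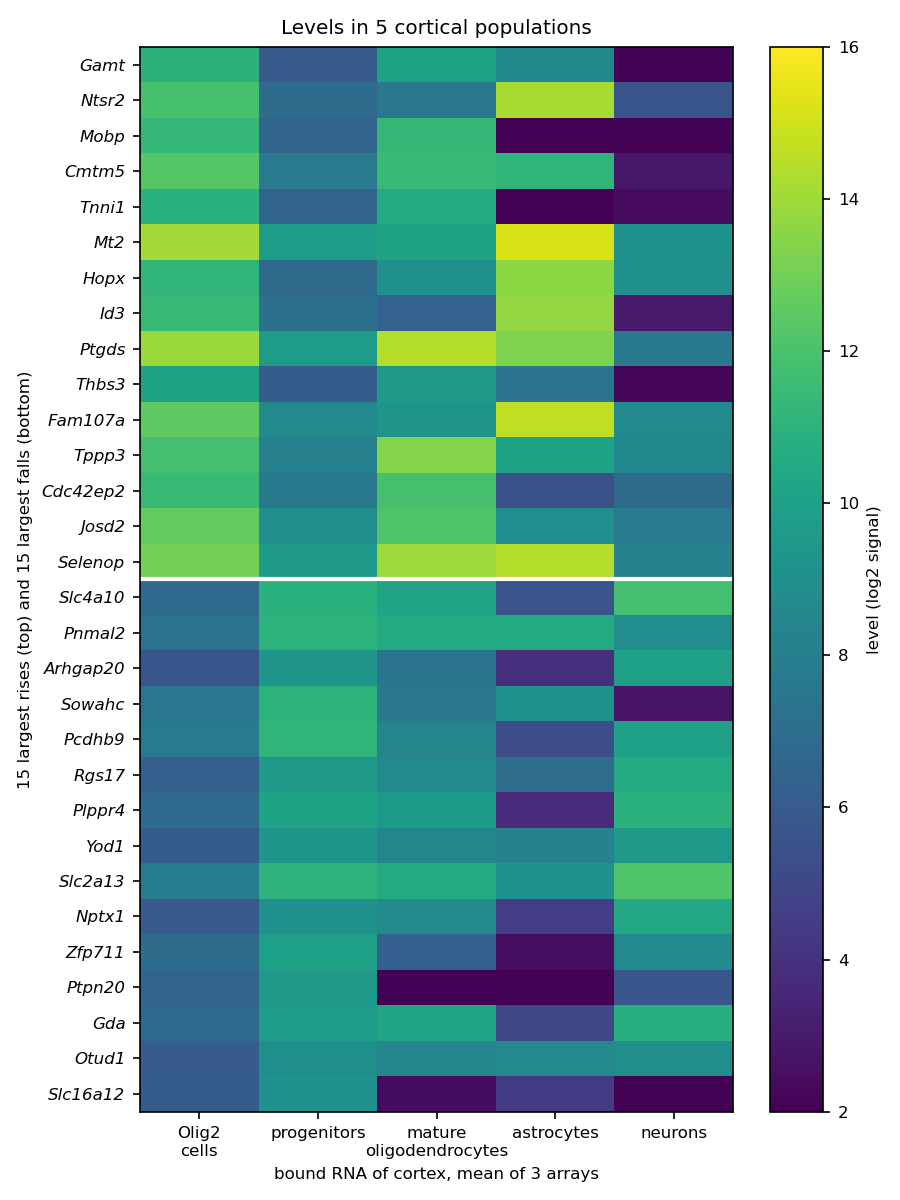
Mean level (log2 signal, colour) of the 15 largest rises and 15 largest falls in bound RNA of 5 cortical populations, 3 arrays each. Rises such as Mobp, at 11.32 in mature oligodendrocytes, or Ntsr2, at 14.16 in astrocytes, are bright in at least 1 of these populations. Some falls, such as Sowahc, Pcdhb9, Slc16a12 and Ptpn20, are brightest in progenitors.

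Gene lists were then described by their counts. Of 15 tested progenitor markers, 8 fell and 0 rose in Olig2 cells (53.3% against 18.8% of all tested genes), with a median difference of -1.34. At an unadjusted p under 0.05 in limma, 1 was higher, C1ql1, at 1.93-fold, under the minimum. Lhfpl3, a tetraspan membrane protein, read 10.59, 10.63 and 11.11 in Olig2 cells against 12.65, 12.80 and 13.00 in progenitors, 4.12-fold lower (limma adjusted p = 0.000378). Lnx1, a ubiquitin ligase, fell 3.80-fold, Sox6, a transcription factor of progenitors, 3.27-fold, Ptprz1, a receptor phosphatase, 2.59-fold, and Rlbp1, a retinaldehyde-binding protein, 2.47-fold. Every Olig2 array was below every progenitor array for these 5 genes, yet all stayed above the dim limit in Olig2 cells. Cspg4, the NG2 proteoglycan and a defining gene of the list, averaged 8.63 ± 0.41 in Olig2 cells and 9.57 ± 0.23 in progenitors and did not pass (difference -0.94 ± 0.57, limma adjusted p = 0.16). Olig1, the partner of Olig2, averaged 15.27 ± 0.07 in Olig2 cells and 15.50 ± 0.09 in progenitors (limma adjusted p = 0.165).

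Of 15 markers of committed precursors, the stage between progenitors and myelinating cells, 2 rose (13.3%) and 1 fell (6.67%), under the 18.3% and 18.8% of all tested genes, and the median difference was 0.37. Gpr17, a receptor of that stage, read 13.33, 13.30 and 13.53 in Olig2 cells against 13.93, 14.16 and 14.06 in progenitors, a difference of -0.66 ± 0.45 (limma adjusted p = 0.211). Bmp4 averaged 10.59 ± 0.25 in Olig2 cells and 10.06 ± 0.30 in progenitors (limma adjusted p = 0.286), and Bcas1 9.28 ± 0.03 in Olig2 cells and 8.95 ± 0.05 in progenitors (limma adjusted p = 0.122). Gpr17 did not overlap between the groups, but its difference was not separated from 0 by the model. Cnksr3 rose 2.56-fold, Tcf7l2, a Wnt effector of differentiating oligodendrocytes, was at least 2.23-fold higher, and Itpr2 was at least 1.81-fold lower.

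Of 52 tested markers of mature oligodendrocytes and myelin, 35 rose and 1 fell (67.3% higher against 18.3% of all tested genes), with a median difference of 1.72. Mog, a glycoprotein of the outer myelin surface, read 13.76, 13.72 and 13.80 in Olig2 cells against 10.48, 10.83 and 12.28 in progenitors, 5.90-fold higher (limma adjusted p = 0.00817). Mag, a myelin-associated lectin, read 12.70, 12.75 and 12.46 in Olig2 cells against 10.66, 10.76 and 10.72 in progenitors, 3.80-fold higher (limma adjusted p = 0.0109). Mbp, a main protein of compact myelin, read 15.20 on each Olig2 array against 13.98, 14.01 and 13.88 in progenitors, 2.36-fold higher (limma adjusted p = 8.85e-05). These 3 genes were above the dim limit on every array of both groups, and the groups did not overlap; 16 of the 52 genes did not pass.

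Some genes of the list were dim in progenitors. Hapln2, a link protein of nodes of Ranvier, read 7.98, 7.98 and 7.97 in Olig2 cells, whereas it was dim on every progenitor array, so that it was at least 5.04-fold higher. Gjb1, the gap junction protein connexin 32, was at least 5.33-fold higher, and Klk6, a secreted protease, at least 4.08-fold. Serpinb1a rose 9.67-fold, Prr5l 9.60-fold and Insc 7.94-fold. The 1 fall was of Edil3, an integrin ligand, at 6.45, 6.48 and 6.69 in Olig2 cells against 7.76, 8.11 and 8.05 in progenitors, 2.70-fold lower (limma adjusted p = 1.32e-05). Edil3 was higher still in mature oligodendrocytes, at 10.21 ± 0.08.

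Of 50 astrocyte markers, 31 rose (62.0% against 18.3% of all tested genes) and 2 fell (4.0% against 18.8%), with a median difference of 1.88, or 0.88 with dim levels set to the limit. Gja1, the gap junction protein connexin 43, read 11.96, 12.02 and 12.21 in Olig2 cells against 9.49, 10.43 and 10.08 in progenitors, 4.19-fold higher (limma adjusted p = 1.51e-10). Aldoc, a glycolytic aldolase, rose 5.14-fold. Fxyd1, a regulator of the sodium pump, averaged 9.26 ± 0.44 in Olig2 cells against 2.08 in progenitors, at least 12.2-fold higher, and Cldn10 was at least 8.76-fold higher. Not all of the list went this way. Slc1a2, the main glutamate transporter of astrocytes, was at least 2.34-fold higher, whereas Slc1a3, the other one, averaged 7.98 ± 0.16 in Olig2 cells and 8.48 ± 0.24 in progenitors and did not pass (limma adjusted p = 0.231). Gpc5, a glypican, fell 3.76-fold, and Aldh1a1, a retinaldehyde dehydrogenase, fell 2.45-fold. Aqp4, the water channel of endfeet, read 4.64, 5.42 and 5.93 in Olig2 cells and was dim in progenitors.

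Of 49 neuron markers, 21 fell (42.9% against 18.8% of all tested genes) and 2 rose (4.08% against 18.3%), with a median difference of -0.87. With dim levels set to the limit the median was -0.57, and 4 of the falls were dim in both groups. Gria2, a glutamate receptor subunit, read 7.13, 7.11 and 7.68 in Olig2 cells against 9.82, 10.34 and 10.37 in progenitors, 7.32-fold lower (limma adjusted p = 6.69e-10). Sv2b, a synaptic vesicle protein, fell 7.38-fold, Chgb, a granin of secretory granules, 4.44-fold, and Gad1, an enzyme of GABA synthesis, 2.34-fold. Slc17a7, the vesicular glutamate transporter of cortical excitatory neurons, was at least 2.44-fold lower, and Tbr1, a transcription factor of deep-layer neurons, at least 4.61-fold. Sst, the somatostatin gene of interneurons, went the other way, at 8.44, 8.4 and 8.17 in Olig2 cells against 3.48, 3.47 and 3.63 in progenitors, at least 6.46-fold higher (limma adjusted p = 2.55e-05). Dlx1, a transcription factor of interneurons, was at least 1.18-fold higher.

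**Figure D3:**
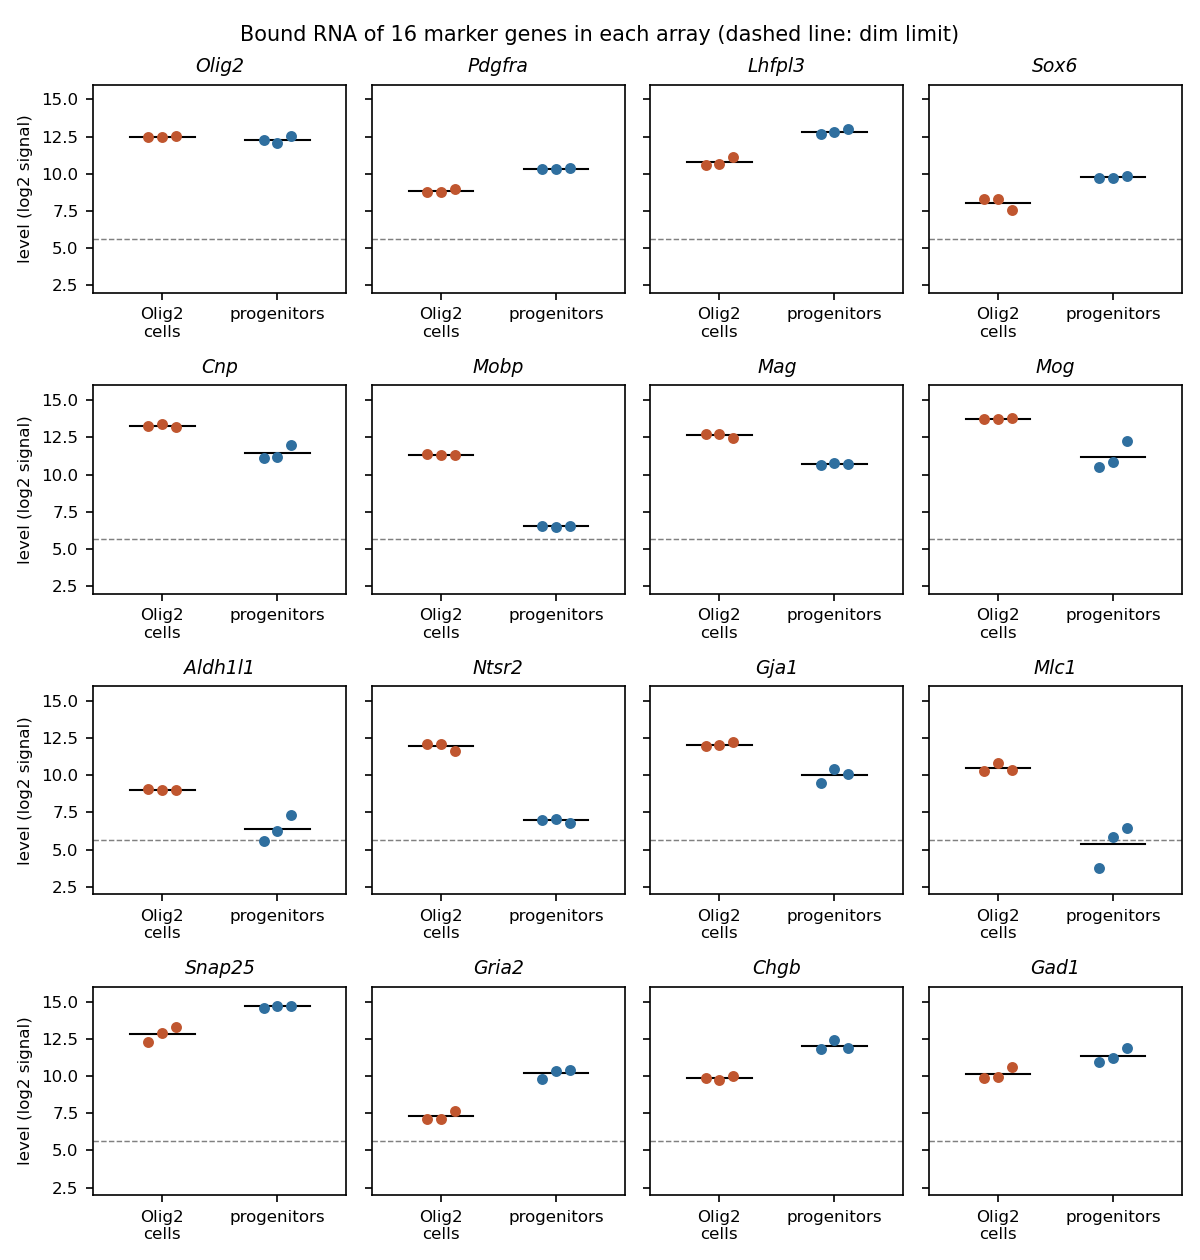
Level (log2 signal) of 16 marker genes in each array of Olig2 cells (left) and progenitors (right); points are arrays, bars are means of 3 and the dashed line is the dim limit of 5.64. Olig2 overlaps, Pdgfra and the other progenitor and neuronal genes shown are lower in Olig2 cells, and the myelin and astrocyte genes shown are higher. The genes were picked for display. List members that went the other way, such as Gpc5, Aldh1a1, Edil3 and Sst, or did not pass, such as Cspg4 and Slc1a3, are not shown.

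The linear signals of each marker list were summed per array, so the brightest genes weigh most. Sums are given from lowest to highest, not in array order. Myelin markers summed to 368509, 385963 and 397526 in Olig2 cells against 153102, 161446 and 185496 in progenitors, and to 643551 to 659464 in mature oligodendrocytes. Astrocyte markers summed to 114205, 115793 and 121629 in Olig2 cells against 51199, 60847 and 67697 in progenitors, and to 360353 to 408565 in astrocytes. In mature oligodendrocytes the astrocyte markers summed to 65623 to 83856. Neuron markers summed to 23769, 27223 and 27238 in Olig2 cells against 55820, 56129 and 63674 in progenitors, and to 208632 to 214117 in neurons. In mature oligodendrocytes the neuron markers summed to 55288 to 62836. Their sums were thus alike in progenitors and mature oligodendrocytes and lower in Olig2 cells. Olig2 cells and progenitors did not overlap in any of these 3 sums, and both held markers of all 3 cell types. In bulk samples, a smaller share of cells of a type and less RNA per cell cannot be told apart. RNA of other cells of the tissue that came down with the tagged ribosomes would enter the same sums, and its part in the results was not tested.

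Markers of other cell types of cortex were also summed, and sums are again given from lowest to highest. Of 29 microglia and macrophage markers, whose signals summed to 263 to 299 in Olig2 cells against 340 to 431 in progenitors, 22 were tested, and 21 of these were dim in both groups. C1qa, a complement gene of microglia, was at the lowest value of 2.08 on all 6 arrays. Endothelial markers summed to 2337 to 2996 in Olig2 cells against 1497 to 1609 in progenitors, and 4 of 11 rose (36.4% against 18.3% of all tested genes), among them Bsg (4.80-fold) and the glucose transporter gene Slc2a1 (3.06-fold), while the tight junction gene Cldn5 was dim in both groups. Among the 4 endothelial rises, 2 were of genes dim in both groups. Pericyte and fibroblast markers summed to 827 to 1192 in Olig2 cells against 1029 to 1223 in progenitors. That list holds Cspg4, which is also a progenitor marker and made up most of the sum in progenitors. These sums therefore do not compare pericyte and fibroblast signal alone. Ependymal and choroid plexus markers summed to 1979 to 2189 in Olig2 cells against 3959, 13969 and 27030 in progenitors. Most of the last came from Ttr, the transthyretin gene of choroid plexus, at 11.04, 10.97 and 10.89 in Olig2 cells against 11.91, 14.70 and 13.76 in progenitors. That gene varied so widely between arrays that its difference did not pass (limma adjusted p = 0.354).

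Where each gene was highest outside the compared groups was read from the 9 arrays of mature oligodendrocytes, astrocytes and neurons. Of 1029 genes at least 2-fold above the other populations in mature oligodendrocytes, 33.7% rose and 12.1% fell in Olig2 cells. Of 1557 such genes of astrocytes, 30.7% rose and 13.7% fell. Of 1572 such genes of neurons, 8.33% rose and 32.9% fell. The 4881 genes with no such population were near the background of 18.3% and 18.8%, with 15.7% higher and 16.9% lower. Of the 760 genes dim in all 3 populations, 8.82% rose and 21.4% fell. Such genes passed the filter mainly through other arrays of the series, those of the compared groups among them. Their shares are thus partly set by the filter.

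**Figure D4:**
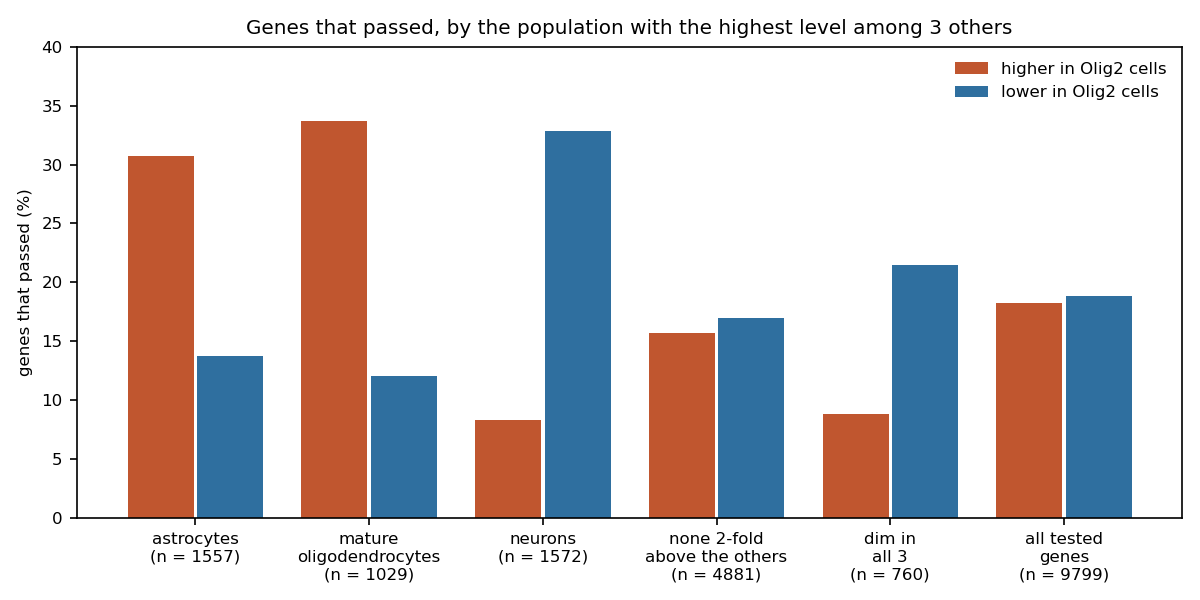
Percentage of genes that rose (left bar) and fell (right bar) in Olig2 cells against progenitors, by the population in which a gene is at least 2-fold highest among astrocytes, mature oligodendrocytes and neurons. Rises were more frequent than falls for genes of mature oligodendrocytes (33.7% and 12.1%) and astrocytes (30.7% and 13.7%), and falls for genes of neurons (32.9% and 8.33%).

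Of 19 tested lineage transcription factors, 4 rose (21.1%) and 3 fell (15.8%), near the background of 18.3% and 18.8%. Nkx6-2, a homeobox factor of myelinating cells, read 10.40, 10.26 and 10.26 in Olig2 cells against 7.76, 7.52 and 8.27 in progenitors, 5.48-fold higher (limma adjusted p = 8.02e-06). Sox10, which drives myelin genes, averaged 10.52 ± 0.20 in Olig2 cells and 9.59 ± 0.05 in progenitors, under the minimum of 2-fold. Myt1, a zinc finger factor of progenitors, fell 2.52-fold. Sox11, a factor of immature neural cells, read 7.38, 7.34 and 7.37 in Olig2 cells against 9.29, 9.31 and 9.21 in progenitors, 3.75-fold lower (limma adjusted p = 0.000242), and Zeb1 fell 3.01-fold.

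All 4 Id genes, targets of bone morphogenetic protein (BMP) signals that block basic helix-loop-helix factors, rose. Id3 read 11.64, 11.42 and 11.22 in Olig2 cells against 7.15, 7.16 and 7.16 in progenitors. Id1, at 6.72 ± 0.01 in Olig2 cells, was dim in progenitors and at least 2.11-fold higher, Id2 rose 2.83-fold and Id4 2.88-fold. The 4 genes were also higher in astrocytes than in either group, with Id1 at 9.53 ± 0.70, Id2 at 13.90 ± 0.05, Id3 at 13.75 ± 0.14 and Id4 at 13.86 ± 0.10. Of the 27 tested BMP and TGF-beta pathway genes, 6 rose (22.2%) and 7 fell (25.9%), against 18.3% and 18.8% of all tested genes. The falls included the ligand genes Bmp2 and Tgfb2, the receptor gene Bmpr1a and the signal transducer genes Smad1 and Smad4. Of 14 Notch pathway genes, 3 rose and 3 fell (21.4% each), near the same background. Dll3, a Notch ligand, rose 4.28-fold, and Notch1, a receptor, was at least 2.62-fold lower.

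Genes of proliferation differed little by count. Of 30 mitosis genes 2 rose and 3 fell. Of 32 DNA replication genes 1 rose and 3 fell. Both lists were under the background shares of 18.3% and 18.8%. All 3 mitosis falls and the 1 replication rise were dim in both groups. The median differences were -0.84 and -0.43, or 0 and -0.23 with dim levels set to the limit. Signals of replication genes summed to 9671 to 10348 in Olig2 cells against 12438 to 18941 in progenitors, whereas those of mitosis genes overlapped. Ccnd1, the cyclin D1 gene that growth factors induce, read 11.79, 11.24 and 10.47 in Olig2 cells against 12.57, 12.57 and 12.55 in progenitors, 2.64-fold lower (limma adjusted p = 0.023). Mcm4, a subunit of the replicative helicase, fell 2.87-fold. The mitosis genes Nusap1 (6.68 ± 1.11 in Olig2 cells and 8.54 ± 0.36 in progenitors) and Prc1 (6.81 ± 0.24 in Olig2 cells and 8.50 ± 0.18 in progenitors) did not pass (limma adjusted p = 0.0868 and 0.0837). Birc5, an inhibitor of apoptosis with a role in mitosis, was at least 3.09-fold higher. Anln rose 3.99-fold, and it was higher in mature oligodendrocytes, at 13.54 ± 0.22, than in either group. It is on the myelin list as well, so the mitosis counts and sums include a myelin marker. The overlap of the mitosis sums was not examined without it.

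Of 27 neurotransmitter receptors 15 fell (55.6% against 18.8% of all tested genes) and 1 rose (3.7% against 18.3%), with a median difference of -1.15. With dim levels set to the limit the median was -0.91, and 3 of the falls were dim in both groups. Gabrb2, a GABA receptor subunit, read 4.64, 4.66 and 4.88 in Olig2 cells against 8.37, 8.56 and 8.28 in progenitors, at least 6.76-fold lower, and Grm5, a metabotropic glutamate receptor, was at least 6.05-fold lower. Drd1, a dopamine receptor, was at least 4.38-fold lower, and Glra2, a glycine receptor subunit, at least 3.36-fold. The receptors Gria2, Gabrb2, Grm5, Drd1 and Glra2 were above the dim limit in neurons and in mature oligodendrocytes too. Grin2c, an NMDA receptor subunit that is high in astrocytes (10.73 ± 0.45), was the 1 rise, at least 1.15-fold.

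Of 39 ion channel genes 13 fell (33.3% against 18.8% of all tested genes) and 4 rose (10.3% against 18.3%). Among the falls 4 were dim in both groups. The median difference was -0.61, or 0 with dim levels set to the limit. The sodium channel genes Scn2a and Scn1a were at least 4.84-fold and at least 2.14-fold lower, and the potassium channel subunit gene Kcnab1 at least 4.89-fold. Kcnk13, a two-pore potassium channel, rose 4.35-fold and Hcn2, a pacemaker channel, 4.29-fold, and both were higher in mature oligodendrocytes than in astrocytes or neurons. Of 34 axon guidance genes 12 fell (35.3%) and 3 rose (8.82%), beside the same background. Of these falls 6 were dim in both groups. The median difference was -0.37, or 0 with dim levels set to the limit. Robo1, a Slit receptor, read 6.74, 6.75 and 7.18 in Olig2 cells against 9.91, 9.92 and 9.31 in progenitors, 7.08-fold lower (limma adjusted p = 2.58e-06). Plxnb2 was at least 5.09-fold lower and Epha4 at least 4.74-fold. Unc5b, a netrin receptor, rose 5.26-fold and Efnb3, an ephrin, 3.64-fold, and both were highest in mature oligodendrocytes among the other 3 populations.

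Cholesterol is a main lipid of myelin and is made within the brain, also by astrocytes. Of 15 tested cholesterol synthesis genes, 11 rose (73.3% against 18.3% of all tested genes) and 1 fell (6.67% against 18.8%), with a median difference of 1.49. Mvk, mevalonate kinase, read 7.58, 7.55 and 7.57 in Olig2 cells and was dim in progenitors, at least 3.79-fold higher. Mvd, the decarboxylase of the same branch, read 9.22, 9.52 and 9.01 in Olig2 cells against 6.51, 6.48 and 6.85 in progenitors, 6.22-fold higher (limma adjusted p = 5.17e-08). Tm7sf2, a sterol reductase, rose 5.32-fold, Msmo1, a methylsterol oxidase, 3.89-fold, Cyp51, a sterol demethylase, 3.71-fold, and Fdft1, squalene synthase, rose by 1.58 on the log2 scale. Sqle, squalene epoxidase, averaged 11.34 ± 0.29 in Olig2 cells and 11.18 ± 0.09 in progenitors (limma adjusted p = 0.677). The values of Mvk, like those of Hapln2 and Id1 above, were identical on the 3 arrays of each group as deposited, so no adjusted p is given for them. The fall was of Srebf2, the transcription factor that turns these enzymes on, at 5.62 ± 0.02 in Olig2 cells and 6.63 ± 0.08 in progenitors.

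Promoters of Mvk, Mvd and Tm7sf2, the enzymes named first above, are shown because 11 of the 15 genes of the list rose. The stretches are the 250 bases before the transcription start in RefSeq's annotation of GRCm38.p6, read 5′ to 3′ on the strand of the gene, and capitals mark CCAAT or its complement ATTGG, searched on both strands.
Mvk (chr5:114444019-114444268, plus strand): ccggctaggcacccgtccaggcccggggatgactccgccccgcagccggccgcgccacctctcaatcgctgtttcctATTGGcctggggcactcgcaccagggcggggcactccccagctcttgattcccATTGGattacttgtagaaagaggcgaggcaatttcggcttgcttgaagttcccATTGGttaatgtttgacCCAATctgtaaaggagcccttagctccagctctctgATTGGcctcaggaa
Mvd (chr8:122443423-122443672, minus strand): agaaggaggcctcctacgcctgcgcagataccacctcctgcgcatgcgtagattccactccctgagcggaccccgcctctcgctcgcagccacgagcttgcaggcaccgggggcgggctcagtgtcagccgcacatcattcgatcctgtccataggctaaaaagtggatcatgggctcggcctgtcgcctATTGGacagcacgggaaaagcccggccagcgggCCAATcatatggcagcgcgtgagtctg
Tm7sf2 (chr19:6067851-6068100, minus strand): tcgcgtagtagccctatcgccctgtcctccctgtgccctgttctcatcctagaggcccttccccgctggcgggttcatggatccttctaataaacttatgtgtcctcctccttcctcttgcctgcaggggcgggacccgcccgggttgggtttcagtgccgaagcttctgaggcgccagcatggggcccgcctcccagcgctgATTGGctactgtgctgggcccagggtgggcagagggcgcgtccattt
CCAAT, the box bound by the factor NF-Y, matched 5 times in the Mvk stretch, 2 times in that of Mvd and 1 time in that of Tm7sf2. Of the tested cholesterol synthesis genes, 13 had a promoter entry and all 13 held CCAAT, 7 of them at least 2 times, against 40.9% of 7978 tested genes with an entry and 37.5% of all 27025 genes with one. The sterol element TCACNCCAC, also searched on both strands, was in 0 of the 13 against 1.23% of tested genes. The genes that rose in Olig2 cells held CCAAT in 42.5% of 1501 entries. The box was looked at after the values were seen, and a match is a description of the sequence.

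Of 58 oxidative phosphorylation genes, 18 rose (31.0% against 18.3% of all tested genes) and 1 fell (1.72% against 18.8%), with a median difference of 0.40. Ndufa7, a complex I subunit, read 11.08, 10.41 and 10.02 in Olig2 cells against 8.49, 8.58 and 7.64 in progenitors, 4.82-fold higher (limma adjusted p = 1.02e-06). Uqcr10, a complex III subunit, rose 3.63-fold, and Cox8a, a complex IV subunit, was at least 3.33-fold higher. The fall was of Atp5g1, which was dim in both groups. Of 13 glycolysis genes 2 rose (15.4%, under that background), Aldoc and Slc2a1, which are named above with astrocyte and endothelial markers. Of 22 immediate early genes, which neuronal and glial activity induce within minutes, 6 fell (27.3% against 18.8% of all tested genes) and 1 rose (4.55% against 18.3%). Egr2 read 7.30, 7.34 and 7.20 in Olig2 cells against 9.85, 10.27 and 9.75 in progenitors, 6.41-fold lower (limma adjusted p = 0.00181), and Egr1 fell 2.46-fold. Fos, at 10.08, 10.63 and 9.97 in Olig2 cells against 12.54, 12.29 and 10.81 in progenitors, did not pass (limma adjusted p = 0.0632).

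**Figure D5:**
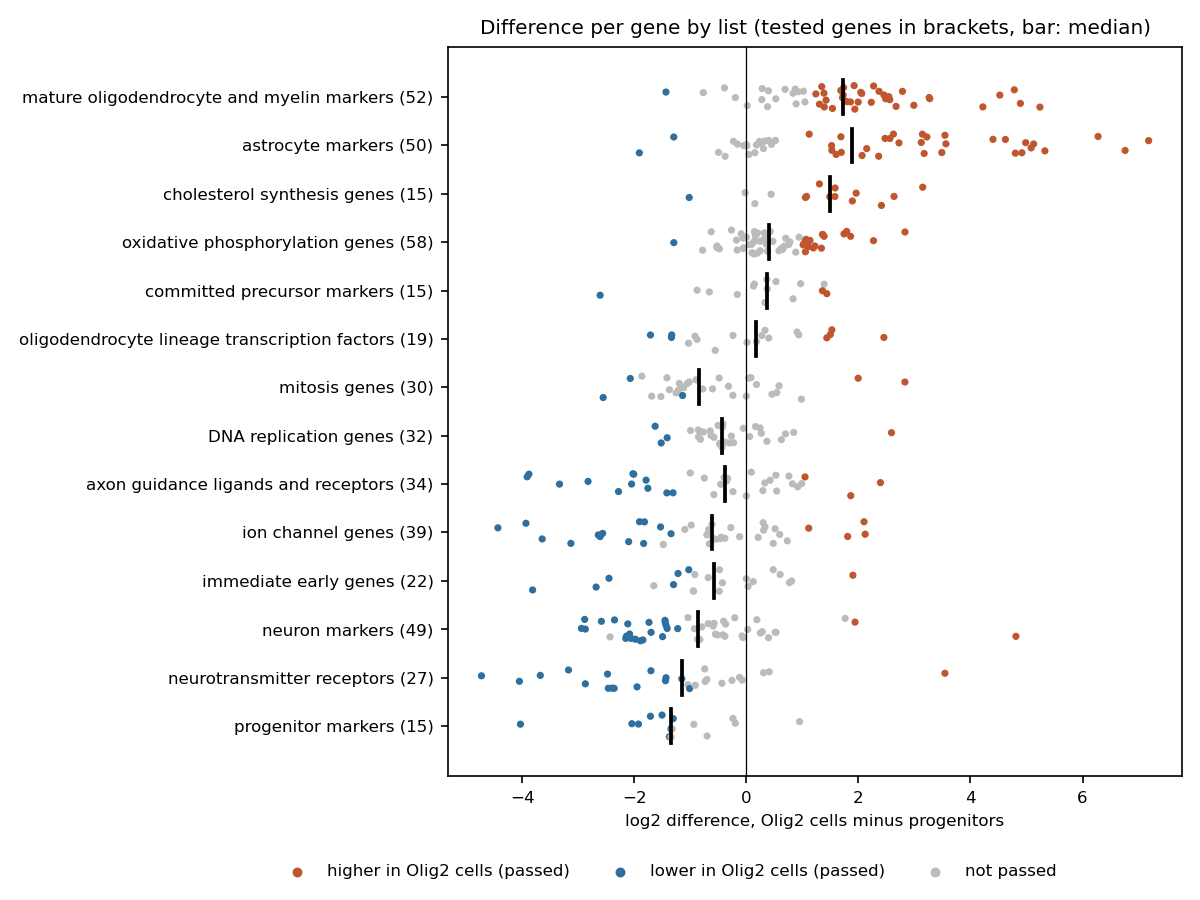
Difference of each tested gene (log2, Olig2 cells minus progenitors) in 14 gene lists; points are genes, coloured by whether they passed, and black bars are medians. The medians run from 1.88 for astrocyte markers and 1.72 for myelin markers to -1.15 for neurotransmitter receptors and -1.34 for progenitor markers. With dim levels set to the limit, the medians are 0.88 for astrocyte markers and 1.70 for myelin markers.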

How the data were processed

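RNA of 38 Affymetrix mouse arrays was measured after a 2-cycle amplification, per the labels. The deposited values are log2 signals made by the authors with GCRMA (version not given in the sources used here), per the submitters' processing notes. Each group of arrays has its own lowest value, so the scale between groups is open, and the spread between replicates may be too small for all genes. The number of arrays limits the precision.

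The deposited values were quantile normalized over the 38 arrays. Of 16395 probe sets, 15644 had 1 gene, 687 none and 64 were controls, per the platform annotation. The 9799 genes above a signal of 50 in at least 3 arrays entered 1 linear model of the 12 groups (limma 3.58.1, R 4.3.3, 26 residual degrees of freedom), with Benjamini-Hochberg adjustment over tested genes. The contrast was the 3 Olig2 arrays minus the 3 progenitor arrays. The 5845 other genes were left out. The fit was tested on simulated data. Lower bounds set the dim group at the limit of 50, or at its own level where that is higher.

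Members and the 31 gene lists (1095 entries, 904 measured, 737 tested, 6 by synonym) were chosen with earlier results of these data known. Named genes are the 5 reporter genes, the 15 largest rises and falls with both means above the limit, the 8 per direction with 1 mean below it, and up to 6 passing members of each list plus defining members, given as values. The 15 largest and the 8 per direction were taken from passing genes without overlap between the groups and without a clone name. In all, 22 alternatives were tried.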

Additional observations from a re-analysis of the deposited data

How the results depend on the processing

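The 22 alternatives changed the normalization, the arrays in the fit, the filter, the prior, the weights or the replicates; 4 were chosen after seeing the data (genes identical in both groups or in either group left out, both arrays numbered 3 left out, and a fit of the 20 cortex arrays). With no minimum fold, 2893 genes were higher and 3059 lower, and 32 oxidative phosphorylation genes were higher. With genes whose 3 deposited values were identical in either group left out, 1187 were higher and 1185 lower of 6554 tested; the cause is that fewer genes were tested. Among the 85 named genes, 63 stayed in that fit, and all 63 kept their result. Leaving out each array in turn gave 1699 to 1838 genes higher and 1751 to 1916 lower. Spike-in scaling gave 1288 higher and 2163 lower, and no gene that had passed changed direction under any of the 22 alternatives. Deviations of same-numbered arrays of the groups correlated at 0.09, -0.18 and -0.04, and those of differently numbered arrays at -0.15 to 0.22. With 3 arrays per group, this cannot tell whether the numbers pair the samples. With the replicate number as a block, 1776 genes were higher and 1834 lower. Of 85 named genes, Neurod1, a neuron marker dim in both groups, was the 1 that no longer passed in any alternative: with the block, with no filter, without any 1 array and without both arrays numbered 3. Olig2 stayed under 2-fold throughout, also where its adjusted p was 0.0109, with array weights. Dim levels limit changes to bounds, and 1699 tested genes were dim in both groups.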

Other observations

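The metallothionein genes Mt1, Mt2 and Mt3, of which Mt1 and Mt3 were chosen after their values were seen, rose in Olig2 cells. Mt2 read 14.38, 14.11 and 13.75 in Olig2 cells against 10.14, 9.61 and 9.53 in progenitors, Mt1 rose 8.41-fold and Mt3 2.84-fold. Each was highest in astrocytes among the other 3 populations, with Mt1 at 15.05 ± 0.14. Of 38 matrix, integrin and adhesion genes 7 rose (18.4%) and 3 fell (7.89%), against 18.3% and 18.8% of all tested genes. Adamts4, a protease of the brain matrix, rose 9.16-fold, Sparc was at least 8.09-fold higher, Itgb4, an integrin subunit, at least 3.75-fold and Lama2, a laminin chain, at least 3.06-fold. Nrcam, an adhesion protein, fell 2.44-fold.

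Of 21 growth factor receptor, feedback and cyclin D genes, 3 rose (14.3%) and 5 fell (23.8%), near the background of 18.3% and 18.8%. Ntrk2, the receptor for brain-derived neurotrophic factor, fell 3.57-fold, Spry1, a feedback inhibitor, 2.31-fold, and Igf1r was at least 1.94-fold lower, while Lrig1, another feedback inhibitor, rose 4.16-fold. Of 17 type I interferon response genes 2 rose and 2 fell (11.8% each, under the background). Ifit2 read 9.12, 9.25 and 10.26 in Olig2 cells against 12.19, 12.11 and 12.06 in progenitors, 5.97-fold lower (limma adjusted p = 0.000139). Of 16 cytosolic ribosomal protein genes 2 rose, Rps9 (4.42-fold) and Rps15 (4.39-fold), and 3 fell, among them Rpl22 (2.42-fold), shares of 12.5% and 18.8%. Of 21 Wnt pathway genes 6 rose (28.6% against 18.3% of all tested genes) and 3 fell (14.3% against 18.8%), with the receptor gene Fzd2 at least 1.98-fold higher and the feedback gene Axin2 at least 2.46-fold lower. Of 15 antigen presentation genes 0 passed in limma, with 2 higher and 0 lower at an unadjusted p under 0.05, and 11 were dim in both groups.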
